A study of Arabidopsis thaliana with 4 samples.

Results

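Nuclear genes for proteins of the plastid ribosome were followed in single plants of Arabidopsis thaliana. The set holds 39 loci of the 33977 gene rows in the files, taken by locus from a list of 24 large-subunit (50S) proteins, 9 small-subunit (30S) proteins and 6 plastid-specific ribosomal proteins. Messenger RNA had been sequenced from 2 wild-type plants of the Col-0 accession and 2 Col-0 plants that overexpressed PPD3, all harvested at bolting after growth on peat in long days. PPD3 is a member of the PsbP-domain family, which is named for a protein of the oxygen-evolving side of photosystem II. The sources used here do not state the promoter behind PPD3 or whether both overexpressor plants come from the same transgenic line. The labels call the plants biological replicates, name the rosette as tissue in one place and entire plants in another, and the p-values below measure the spread between these plants. Where values are given for a pair of plants, plant 1 comes first and plant 2 second.

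Plastids keep a ribosome of the bacterial type, which translates the messages of the plastid genome, among them those for core photosystem subunits and the large subunit of Rubisco. Most of its proteins are encoded in the nucleus, made in the cytosol and imported, while the rest and the ribosomal RNA come from the plastid genome. In leaves these nuclear genes are most active while chloroplasts are being built. A few proteins have no counterpart in most bacteria and are called plastid-specific, PSRP for short. PSRP1 stands apart among them, because it is related to the bacterial factors that bind idle ribosomes and is not a structural subunit.

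The genotypes could be read from the target gene. PPD3 (AT1G76450, so assigned from general knowledge because the reference does not carry that symbol) had 3800 and 2460 raw counts in the wild-type pair and 113628 and 111903 in the overexpressor pair, or 103 and 70.7 against 2836 and 3264 CPM (counts scaled to a common library size). It was 35.2-fold higher (log2 fold change 5.14 ± 0.31, SE), and even so edgeR's adjusted p was 0.0623, above the threshold of 0.05, while DESeq2's was 4.40e-86. Gene counts summed to between 33771093 and 40727172 per library. Leaf genes were abundant in all plants, with Rubisco activase (RCA) at 3184 CPM or more. The 8 floral and bud genes listed summed to 18.1 and 9.22 CPM in the wild-type pair and 28.3 and 23.0 CPM in the overexpressor pair.

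The upstream sequences of 2 members are shown as examples: that of PRPL19.1, because it held the most TGGGCC matches of any member, and that of PSRP1, because it was the member lower in the overexpressor. Each line gives the 250 bases before the annotated gene start in the RefSeq annotation of TAIR10.1, 5′ to 3′ on the gene's strand. Capitals mark matches, on either strand, to 6 short motifs: TGGGCC and TGGGCT (the site II element known from ribosomal protein and growth genes), AAACCCTA (telo box), CACGTG (G-box), GATAAG (I-box, known from light-regulated genes) and CCAATC (a GLK-type motif).
PRPL19.1, chr4:9779974-9780223, plus strand: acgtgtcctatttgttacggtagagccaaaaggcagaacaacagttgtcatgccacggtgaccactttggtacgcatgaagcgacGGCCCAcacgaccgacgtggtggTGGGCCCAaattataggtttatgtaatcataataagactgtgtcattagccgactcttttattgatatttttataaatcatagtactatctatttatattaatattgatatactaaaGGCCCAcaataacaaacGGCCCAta
PSRP1, chr5:8365351-8365600, plus strand: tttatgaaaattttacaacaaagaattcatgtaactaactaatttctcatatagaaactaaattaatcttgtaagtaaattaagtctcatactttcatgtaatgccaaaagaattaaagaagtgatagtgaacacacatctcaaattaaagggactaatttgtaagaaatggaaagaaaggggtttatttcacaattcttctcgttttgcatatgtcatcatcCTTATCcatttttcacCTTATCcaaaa
The window of PRPL19.1 held 5 matches to TGGGCC, of which a pair overlap each other. That of PSRP1 held none of these and 2 matches to GATAAG, read as CTTATC on the strand shown, near the gene start. Over the 39 members, TGGGCC occurred in 12 windows (30.8%), against 13.7% of 27443 protein-coding genes, and TGGGCT in 17.9% against 12.3%. Most higher members held no TGGGCC, among them PSRP3/1, PRPL9, PRPL11 and PRPL21, so its presence did not separate higher members from PSRP1. The I-box was found in 10 members, PSRP1 among them (25.6%), and in 12.3% of all genes, the telo box in 10.3% and 4.49%, the G-box in 7.69% and 6.49%, and the GLK-type motif in 10.3% and 10.2%. In 21 members the window overlaps another annotated gene. These are matches of letters, which say nothing of binding.

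Of the 39 members, 38 had enough reads to be tested, with 823 to 25211 raw counts per plant. Both overexpressor plants stood above both wild-type plants in 37 of the 38, against a background of 33.9% of the 19919 genes tested, and below both in 1, PSRP1, against 33.0%. Positive log2 fold changes were found in 37 of the 38 members and in 51.2% of all genes tested. CPM values are after TMM scaling, and fold changes are overexpressor over wild type. The median log2 fold change of the members was 0.70, beside 0.01 for all genes tested. Without PSRP1 the fold changes lay in a narrow range, from 1.42-fold to 1.94-fold higher, with an SD over the 37 genes of 0.11 on the log2 scale. The interquartile range of all genes ran from -0.33 to 0.36. Read counts in bulk tissue cannot tell more cells with active plastids from more of these messages per cell.

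No member passed edgeR's quasi-likelihood test at an adjusted p of 0.05. Adjusted p-values ran from 0.0675 to 0.191. The same test called 0% of all genes higher and 0.00502% lower, a single gene. An adjusted p of 0.0623, the lowest among higher genes, was shared by 681 genes, so it does not rank them. With the adjusted p relaxed to 0.10, edgeR called 16 members as higher and 1 as lower, where the backgrounds were 9.56% and 11.2%. An unadjusted p under 0.05 was reached by 35 members on the higher side and 1 on the lower side, against 16.1% and 17.0% of all genes. Of the members, 30 were called higher by DESeq2, another count test with the threshold 0.05, and 1 was called lower, where the backgrounds were 8.41% and 9.72%. The DESeq2 calls changed with single plants, among the members and over all genes. Without wild-type plant 1 they came to 37 members higher and 1 lower, and to 2358 and 2152 of all genes. Without wild-type plant 2 no member was called, and 157 and 356 of all genes were. Leaving out overexpressor plant 1 gave 6 members higher and 0 lower, with 465 and 1277 of all genes. Leaving out overexpressor plant 2 gave 0 members, with 297 and 660 of all genes. At the relaxed threshold edgeR called 0 members in each of these 4 subsets. In 3 of them it called 0 genes of any kind, so the count says nothing of the members there, and without overexpressor plant 1 it called 968 genes higher and 1252 lower. With 2 plants against 2, an exact permutation test cannot give a two-sided p below 0.333.

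The plants of each genotype also differed among themselves. Wild-type plant 1 was above wild-type plant 2 in all 38 members, by a median log2 difference of 0.46. Over all genes tested it was above in 10083 of 19919, with a median of 0.003. Without PSRP1 the ratio between these plants ran from 1.25-fold to 1.58-fold. Overexpressor plant 2 was above overexpressor plant 1 in 35 members, by a smaller median log2 difference (plant 1 over plant 2, -0.14). Over all genes tested that median was -0.03. The gap that separates the genotypes, from the higher wild-type plant to the lower overexpressor plant, was 0.17 to 0.60 on the log2 scale over the 37 higher members, with a median of 0.40. In 13 of the 37 it was wider than the gap between the wild-type plants. Measured from wild-type plant 1, the median log2 difference of the 38 members was 0.40 in overexpressor plant 1 and 0.58 in overexpressor plant 2. Measured from wild-type plant 2 it was 0.86 and 1.01. The size of the difference thus depended on which wild-type plant was used.

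**Figure D1:**
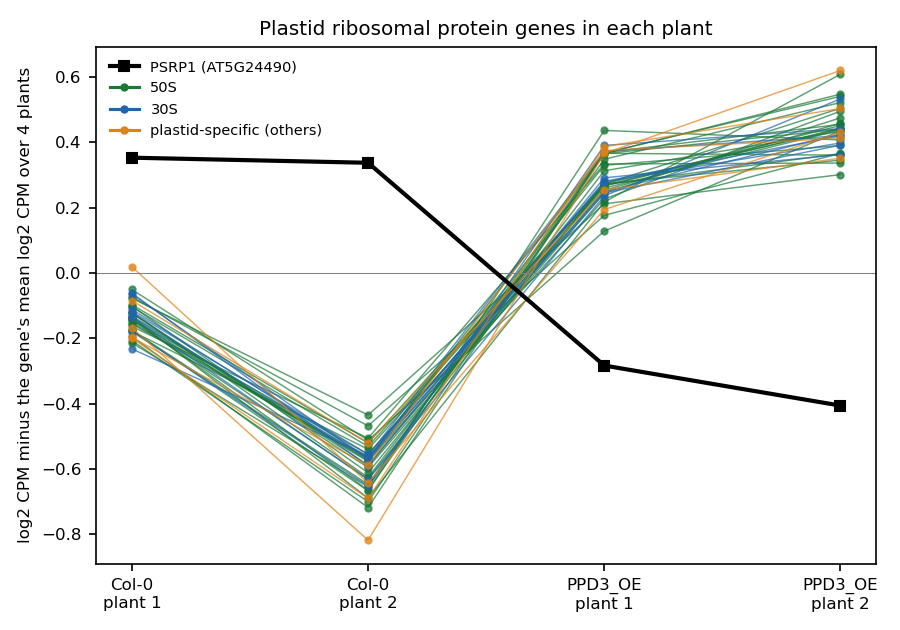
Level of each of the 38 tested members in each plant, as log2 CPM minus that gene's mean log2 CPM over the 4 plants; each line joins the values of 1 gene and has no meaning as an order. The 37 other members share a course with wild-type plant 2 lowest and both overexpressor plants high, and PSRP1 (black squares) runs the other way, with its wild-type plants close together.

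The large-subunit proteins were the most numerous class. All 24 were higher in both overexpressor plants, from 1.42-fold to 1.86-fold, with a median log2 fold change of 0.71. DESeq2 called 21 of them higher and edgeR, at an adjusted p of 0.10, called 11. Of all genes, 33.9% were higher in both overexpressor plants, and 8.41% and 9.56% were called higher by these tests.

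PRPL9 (AT3G44890), a protein near the base of the L1 stalk in the bacterial subunit, stood at 200 and 139 CPM in the wild-type pair and at 295 and 335 CPM in the overexpressor pair. Its log2 fold change, 0.89 ± 0.22 (SE), was the largest of the class (edgeR adjusted p = 0.0867). PRPL21 (AT1G35680), with the smallest unadjusted p of the class, was at 291 and 214 CPM in wild type and at 429 and 484 CPM in the overexpressor (0.85 ± 0.20, edgeR adjusted p = 0.0832). In both genes each overexpressor plant was above each wild-type plant, and wild-type plant 2 was the lowest.

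The stalk of the large subunit recruits the translation factors that split GTP. Its base protein PRPL11 (AT1G32990) was at 187 and 133 CPM in wild type and 279 and 314 CPM in the overexpressor (log2 fold change 0.89 ± 0.21, edgeR adjusted p = 0.0833). PRPL10 (AT5G13510), which anchors the L12 proteins, had far fewer reads, with 43.9 and 31.4 CPM in wild type and 58.7 and 68.9 CPM in the overexpressor. The L12 proteins come from a cluster on chromosome 3 in TAIR10.1, PRPL12-A (AT3G27830) at 10318455 to 10319920 and PRPL12-C (AT3G27850) at 10324788 to 10325746, both on the plus strand and 4867 bases apart. The copy between them, PRPL12-B (AT3G27840), is listed at 0 in all plants. PRPL12-A was at 302 and 219 CPM in wild type and 392 and 451 CPM in the overexpressor (0.70 ± 0.21, edgeR adjusted p = 0.112). PRPL12-C was at 328 and 238 CPM in wild type and 371 and 459 CPM in the overexpressor (0.55 ± 0.23, edgeR adjusted p = 0.175). Without wild-type plant 2 their log2 fold changes were 0.46 and 0.32. Copy A passed DESeq2 (adjusted p = 0.0261) and copy C did not (adjusted p = 0.112); the difference between the copies was not tested. Near-identical copies can lose reads to multiple alignment, so their levels are uncertain.

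Around the exit tunnel, PRPL4 (AT1G07320), which lines the tunnel in bacteria, was 1.61-fold higher and PRPL24 (AT5G54600), an assembly protein near the tunnel mouth, 1.64-fold higher. PRPL29 (AT5G65220), at the rim where the nascent chain leaves, showed the lowest fold change of the class. It was at 329 and 257 CPM in wild type and 402 and 428 CPM in the overexpressor (log2 fold change 0.50 ± 0.18, edgeR adjusted p = 0.139, and it did not pass DESeq2, adjusted p = 0.0707). Without wild-type plant 2 the log2 fold change was 0.32. PRPL27 (AT5G40950), whose bacterial relative reaches towards the peptidyl transferase centre, was 1.75-fold higher, and PRPL15 (AT3G25920), an internal protein of the subunit, 1.77-fold.

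PRPL19 is made from a pair of genes on different chromosomes. PRPL19.1 (AT4G17560, chromosome 4, 9780224 to 9782183, plus strand) was at 192 and 135 CPM in wild type and 259 and 281 CPM in the overexpressor (0.72 ± 0.21, edgeR adjusted p = 0.105), or 0.48 on the log2 scale without wild-type plant 2. PRPL19.2 (AT5G47190, chromosome 5, 19164184 to 19166135, minus strand) was at 184 and 128 CPM in wild type and 262 and 275 CPM in the overexpressor (0.78 ± 0.21, edgeR adjusted p = 0.0964). The copies kept to each other in every plant. Per kilobase of exon, PRPL19.1 stood at 0.854 and 0.866 of the level of PRPL19.2 in the wild-type pair and at 0.813 and 0.839 of it in the overexpressor pair.

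The other large-subunit members lay within the same range. PRPL1 (AT3G63490), the L1 stalk protein, was 1.45-fold higher and did not pass DESeq2 (adjusted p = 0.0781). PRPL3 (AT2G43030), an early assembly protein in bacteria, was 1.64-fold higher, PRPL5 (AT4G01310), which binds the 5S RNA, 1.58-fold, and PRPL18 (AT1G48350), also a 5S RNA binder, 1.62-fold. PRPL6 (AT1G05190), near the factor-binding site in bacteria, was 1.52-fold higher, PRPL13 (AT1G78630), an early assembly protein there, 1.54-fold, and PRPL17 (AT3G54210), at the tunnel exit, 1.62-fold. PRPL28 (AT2G33450) was 1.75-fold higher, PRPL31 (AT1G75350) 1.63-fold, PRPL34 (AT1G29070) 1.63-fold and PRPL35 (AT2G24090) 1.64-fold.

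**Figure D2:**
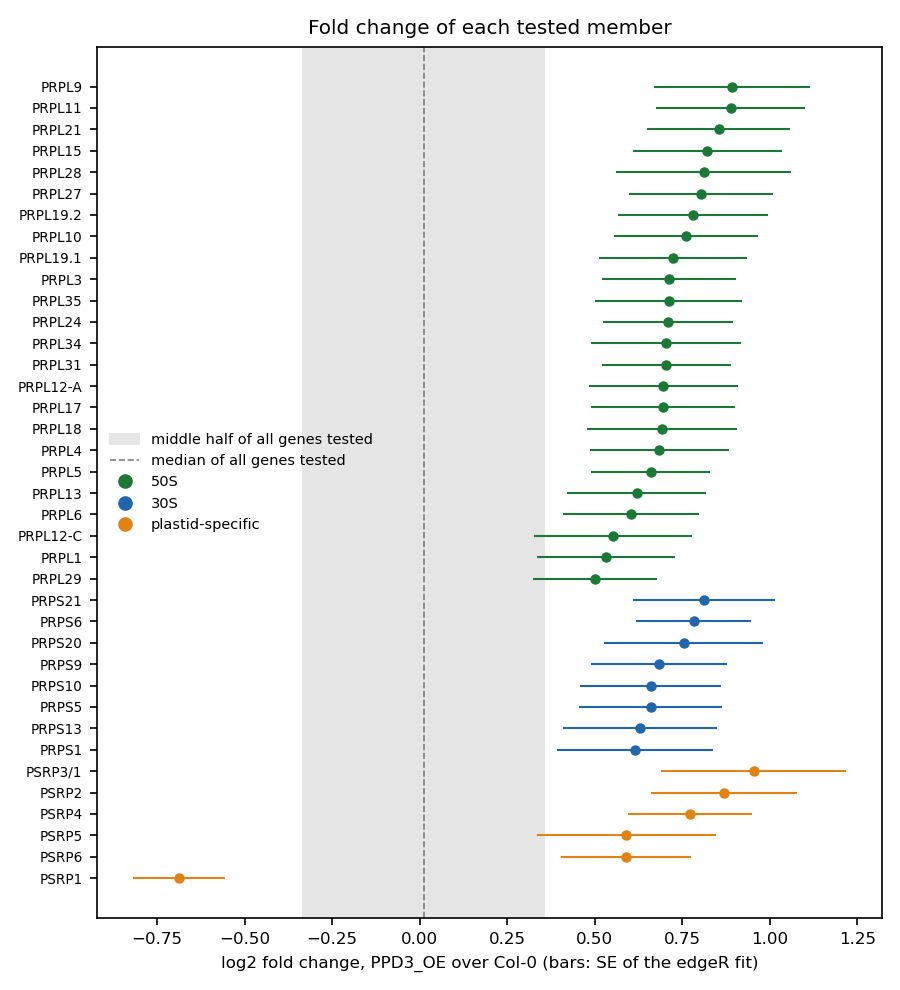
log2 fold change of overexpressor over wild type for the 38 tested members, by class, with the SE of the edgeR fit as bars; the grey band and dashed line are the interquartile range and the median of all genes tested. Points of 37 members lie to the right of the band, between 0.50 and 0.95, and PSRP1 lies to the left of it at -0.69.

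The small subunit binds the message and decodes it. All 8 tested members were higher in both overexpressor plants, against 33.9% of all genes. The 8 were 1.53-fold to 1.76-fold higher, with a median log2 fold change of 0.67. DESeq2 called 6 and edgeR, at an adjusted p of 0.10, called 2, where the shares of all genes were 8.41% and 9.56%.

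PRPS6 (AT1G64510), a protein of the platform of the subunit, had the smallest unadjusted p of the class. It was at 219 and 175 CPM in wild type and 333 and 344 CPM in the overexpressor (log2 fold change 0.78 ± 0.16, edgeR adjusted p = 0.0726). PRPS21 (AT3G27160), known as GHS1 from a glucose-hypersensitive mutant, was at 230 and 166 CPM in wild type and 341 and 354 CPM in the overexpressor (0.81 ± 0.20, edgeR adjusted p = 0.0860). In both genes the overexpressor plants were close to each other and the wild-type plants farther apart.

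PRPS1 (AT5G30510), which binds messenger RNA, had the lowest fold change of the small subunit. It was at 508 and 358 CPM in wild type and 629 and 697 CPM in the overexpressor (0.61 ± 0.22, edgeR adjusted p = 0.146), and did not pass DESeq2 (adjusted p = 0.0613). Without wild-type plant 2 its log2 fold change was 0.37. PRPS13 (AT5G14320), in the head of the subunit, was 1.55-fold higher and missed the threshold of DESeq2 as well (adjusted p = 0.0580). PRPS5 (AT2G33800), which bears on decoding accuracy in bacteria, was 1.58-fold higher, PRPS9 (AT1G74970) and PRPS10 (AT3G13120), both of the head, 1.61-fold and 1.58-fold, and PRPS20 (AT3G15190), which binds rRNA early, 1.69-fold.

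PRPS17 (AT1G79850), an early rRNA-binding protein in bacteria, could not be measured and is listed at 0 in all 4 plants. In the TAIR10.1 annotation all 710 of its bases lie within 2 neighbouring genes, AT1G79840 and the antisense transcript AT1G09927, and the files set ambiguous reads apart in a row of their own; whether its reads went there was not tested. AT1G09927 is listed at 0 too.

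The 6 plastid-specific proteins held both extremes of the set. PSRP3/1 (AT1G68590), which also has relatives in cyanobacteria, had the highest fold change of all members and PSRP1 the lowest. PSRP3/1 was at 178 and 113 CPM in wild type and 257 and 306 CPM in the overexpressor (log2 fold change 0.95 ± 0.26, edgeR adjusted p = 0.0979). Its wild-type plants differed 1.57-fold. PSRP2 (AT3G52150), an RNA-binding protein, was 1.83-fold higher (edgeR adjusted p = 0.0833). PSRP4 (AT2G38140), a small protein related to bacterial Thx, was at 182 and 138 CPM in wild type and 270 and 277 CPM in the overexpressor (0.77 ± 0.18, edgeR adjusted p = 0.0792).

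PSRP5 and PSRP6 belong to the large subunit. PSRP5 (AT3G56910) was at 37.4 and 23.6 CPM in wild type and 42.2 and 49.7 CPM in the overexpressor (0.59 ± 0.25, edgeR adjusted p = 0.191). Its log2 fold change was 0.28 without wild-type plant 2 and 0.93 without wild-type plant 1. Its overexpressor plants were above both wild-type plants by the smallest margins among the plastid-specific proteins, and its wild-type plants differed 1.58-fold, the widest ratio of all members. PSRP6 (AT5G17870) had a log2 fold change of 0.59 ± 0.19 (DESeq2 adjusted p = 0.0524).

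PSRP1 (AT5G24490, chromosome 5, 8365601 to 8367460, plus strand, 5 exons) went the other way. The wild-type pair had 15852 and 14771 raw counts and the overexpressor pair 11057 and 8691. After scaling these came to 429 and 424 CPM against 276 and 254 CPM, which is 1.61-fold lower in the overexpressor (-0.69 ± 0.13 on the log2 scale). The groups did not overlap, and the log2 gap from the lower wild-type plant to the higher overexpressor plant was 0.62. It had the smallest p of all members and missed edgeR's threshold (adjusted p = 0.0675), while DESeq2's adjusted p was 1.13e-04. Without wild-type plant 2, overexpressor plant 1 or overexpressor plant 2, DESeq2 no longer called it (adjusted p = 0.106, 0.0676 and 0.259), and its edgeR log2 fold change over the 4 subsets ran from -0.75 to -0.63. Of all genes tested, 2335 had a lower log2 fold change, so a difference of this size was not rare.

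Unlike the other members, PSRP1 barely differed between the wild-type plants, with plant 1 at 1.01 times plant 2. Per kilobase of exon it was at 1.45 and 1.94 times the median of the 37 other tested members in the wild-type pair, and at 0.722 and 0.578 times it in the overexpressor pair. It ranked 7 and 1 among the 38 tested members per kilobase in the wild-type plants and 32 and 34 in the overexpressor plants. Its last 159 bases overlap AT5G24500, which had 622 to 783 raw counts per plant, far below those of PSRP1.

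**Figure D3:**
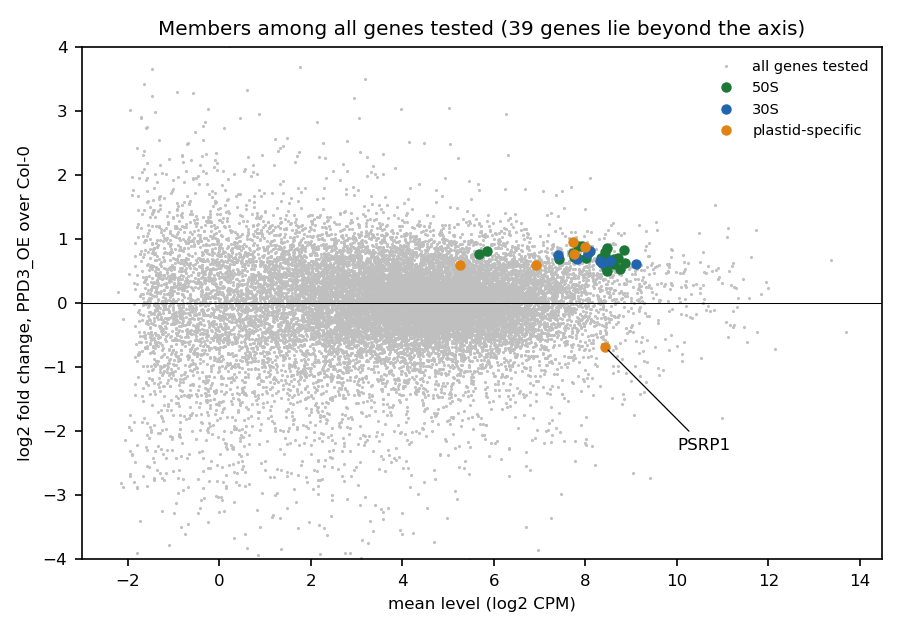
log2 fold change against mean level (log2 CPM) for all genes tested (grey) and the members (coloured by class); 39 genes lie beyond the plotted range of 4 log2 units. The members sit at high levels and, PSRP1 apart, form a compact group above 0, inside the spread of the other genes.

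Despite the difference between plants, the messages of the large-subunit and small-subunit genes kept their proportion on average. The mean level per kilobase of exon of the 24 large-subunit genes was 1.18 and 1.19 times that of the 8 small-subunit genes in the wild-type pair, and 1.18 and 1.19 times in the overexpressor pair. As a share of all gene counts the members together held 0.971% and 0.746% in wild type and 1.26% and 1.37% in the overexpressor.

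Most members had similar levels per length. Averaged over the genotype means, 34 of the 38 lay between 150 and 450 CPM per kilobase of exon, with a median of 264. PRPL29 was highest at 424. The lowest were PSRP5 at 55.2, PRPL10 at 60.8, PRPL28 at 77.3 and PSRP6 at 138. PSRP5, PRPL10 and PRPL28 each overlap another annotated gene, and PSRP6 does not. Overlap with another gene is found in 16 of the 39 members, and since the kit does not mark the strand, reads there cannot be assigned with certainty. The median log2 fold change was 0.70 both in the 15 tested members with such an overlap and in those without, and median levels per kilobase were 255 and 284.

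**Figure D4:**
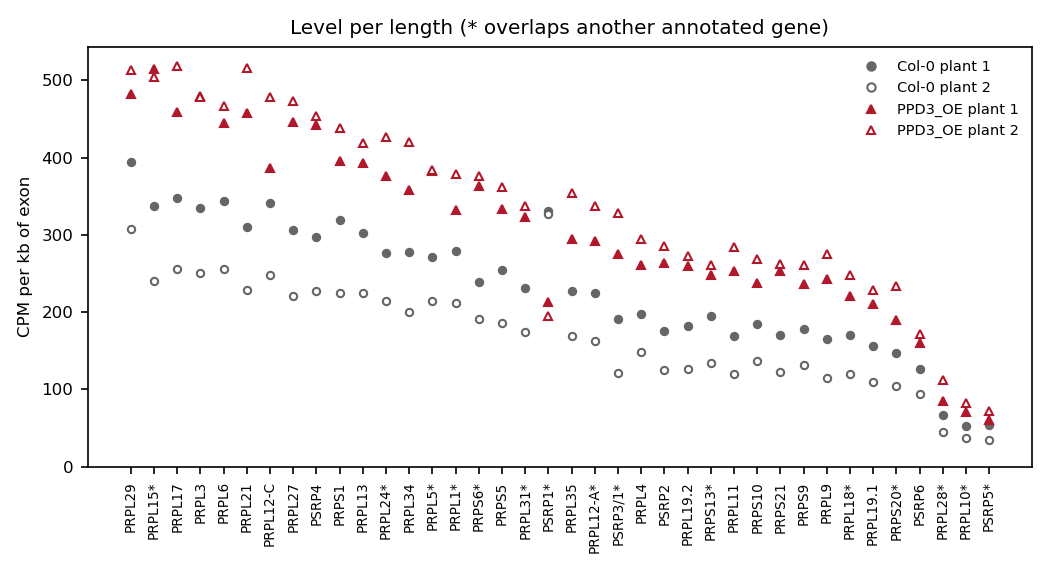
Level per kilobase of exon (CPM per kb) of each tested member in each plant, ordered by the mean of both genotypes; asterisks mark members that overlap another annotated gene. Triangles (overexpressor) lie above circles (wild type) for every member but PSRP1, and the 3 members at the low end carry an asterisk.

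Other genes of plastid translation were examined by list. Of 14 translation factors 13 were tested, 11 had positive fold changes (51.2% of all genes did) and the median log2 fold change was 0.49. Both overexpressor plants were above both wild-type plants in 10 and below both in 1, against 33.9% and 33.0% of all genes. No factor passed edgeR at 0.05, while at an adjusted p of 0.10 3 were higher and 1 lower. The shares of all genes at 0.10 were 9.56% and 11.2%. The highest was AT3G08740, annotated as an elongation factor P, at 132 and 97.7 CPM in wild type and 220 and 272 CPM in the overexpressor (1.10 ± 0.21, edgeR adjusted p = 0.0685). The lower one was AT4G30690, annotated as an initiation factor 3, at 93.7 and 91.6 CPM in wild type and 61.1 and 63.5 CPM in the overexpressor (-0.57 ± 0.10, edgeR adjusted p = 0.0652). Its relative AT2G24060, with the same annotation, was on the other side at 68.4 and 51.5 CPM in wild type and 95.2 and 113 CPM in the overexpressor (0.80 ± 0.19, edgeR adjusted p = 0.0833). AT4G30690 thus resembled PSRP1, with wild-type plants at one level and both overexpressor plants lower. The elongation factor Tu gene RABE1b (AT4G20360) had 0 to 1 counts per plant and fell under edgeR's filter. The antisense transcript AT4G20362 is annotated across most of it. Whether reads of RABE1b were lost to this overlap was not tested.

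Ribosome assembly and rRNA processing genes of the plastid were all higher in both overexpressor plants, 16 of 16, with a median log2 fold change of 0.55. At an adjusted p of 0.10 edgeR had 7 of them higher. Of all genes, 33.9% were higher in both overexpressor plants and 9.56% were called higher at 0.10. The helicase gene EMB3108 (AT1G59990, also called RH22) had 1528 and 1171 raw counts in wild type and 2868 and 2844 raw counts in the overexpressor (1.04 ± 0.16, edgeR adjusted p = 0.0623). The 26 plastid-encoded rows listed for ribosomal proteins are at 0 in all plants, as are all 133 plastid rows, so the plastid's own share of the ribosome was not measured.

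A sample of well known genes for cytosolic ribosomal proteins, not the whole family, served as a neighbouring set. The fold change was positive for 29 of 29 genes (median 0.52 on the log2 scale), and 28 were higher in both overexpressor plants. The shares of all genes were 51.2% and 33.9%. The smallest p belonged to AT3G53890, at 78.2 and 79.1 CPM in wild type and 111 and 129 CPM in the overexpressor (0.61 ± 0.13, edgeR adjusted p = 0.0722). Wild-type plant 1 was above plant 2 in 16 of 29 cytosolic genes, by a median log2 difference of 0.01, against 38 of 38 and 0.46 in the plastid set. The other plastid lists shared the order of the members. Plant 1 was above plant 2 in 13 of 13 plastid translation factors (median 0.56) and 16 of 16 plastid assembly genes (median 0.35). The contrast with the cytosolic genes is a description of 2 plants and was not tested.

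Markers of tissue states were read in the same plants, and the lists differed in direction. Genes of dividing cells were higher in both overexpressor plants in 12 of 12 cases, against 33.9% of all genes (median log2 fold change 0.94). They summed to 208 and 196 CPM in wild type and 375 and 417 CPM in the overexpressor. TSO2 gave the most to these sums, with 60.7 and 74.0 CPM in wild type and 117 and 171 CPM in the overexpressor. Overexpressor plant 1 was above plant 2 in 9 of the 12 genes. The kinesin gene HIK, needed for cell division, had the smallest p there, at 19.9 and 16.4 CPM against 41.0 and 41.3 CPM (edgeR adjusted p = 0.0623). Senescence markers were lower in both overexpressor plants in 5 of 5 tested cases, against 33.0% of all genes. These markers summed to 218 and 480 CPM in wild type and 22.8 and 13.6 CPM in the overexpressor. The larger sum in wild-type plant 2 came mostly from SEN1 (68.7 and 224 CPM in wild type) and ASN1 (37.4 and 128 CPM). In 1 of the 5, SAG13, wild-type plant 1 was above plant 2. SAG13 had the smallest p of these, with 2900 and 1824 raw counts against 350 and 240 (edgeR adjusted p = 0.0623). SAG12, the marker most specific to senescence, had 179 and 7 raw counts in the wild-type pair and 1 and 0 in the overexpressor pair. It fell under edgeR's filter, and DESeq2 gave an adjusted p of 0.00159, with nearly all of its reads in wild-type plant 1. Of 8 leaf mesophyll genes, 3 had positive and 5 negative fold changes (median log2 fold change -0.15). The Rubisco small-subunit gene RBCS2B was at 1203 and 682 CPM in wild type and 2496 and 2962 CPM in the overexpressor (edgeR adjusted p = 0.0775), and the photosystem I antenna gene LHCA1 at 2683 and 2677 CPM in wild type and 2021 and 2125 CPM in the overexpressor (edgeR adjusted p = 0.245). All 8 floral and bud genes had positive fold changes, and 5 were higher in both overexpressor plants, against 33.9% of all genes. SEP1, with the smallest p of the 8, was at 3.19 and 1.61 CPM against 3.89 and 7.53 CPM (edgeR adjusted p = 0.166). The part of these markers in the members' values was not tested.

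**Figure D5:**
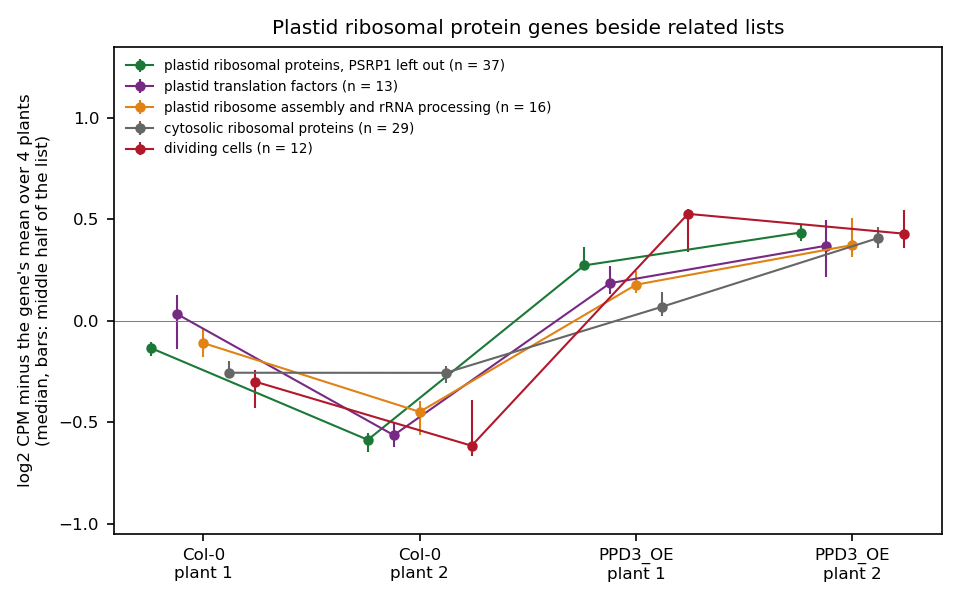
Median log2 CPM relative to each gene's mean over the 4 plants, with bars for the interquartile range of the list, for the 37 members other than PSRP1 and 4 related lists. The members sit at -0.14 and -0.59 in the wild-type pair and at 0.27 and 0.43 in the overexpressor pair, while the cytosolic ribosomal proteins are at -0.26 in both wild-type plants. In the wild-type pair the plastid translation factors are at 0.03 and -0.56 and the plastid assembly genes at -0.11 and -0.45.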

How the data were processed

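The authors deposited whole-number read counts per gene, 1 file per plant, with no normalization. Per the labels' protocols, RNA was extracted with a kit that removes DNA, made into TruSeq libraries, which select polyadenylated RNA and do not mark strand, and read as single reads. The submitters' processing notes name TAIR10 and DESeq2. Aligner, counter and annotation: not given in the sources used here. In each file 5 rows name no gene and were left out of library sizes. Ambiguous reads were 3.67% to 4.18% of each library, reads without a feature 0.713% to 0.941% and reads with several alignments 4.18% to 5.61%.

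The test of counts was that of edgeR 4.0.16 under R 4.3.3 (default filter with a minimum count of 10 and total of 15, TMM, quasi-likelihood F test of genotype without covariates, Benjamini-Hochberg adjustment over the 19919 genes kept, threshold 0.05). The fit had 2 residual degrees of freedom and a prior of 2.36. The SE is the log2 fold change over the square root of F. DESeq2 1.42.0 was the other count test, with an adjusted p for 20304 genes. Positions, exon lengths, overlaps and sequences came from the RefSeq annotation of TAIR10.1. The procedure was tested on simulated counts with 200 genes changed and the same dispersion for every gene. That setting is simpler than these plants, so it does not show how the procedure performs on them. Values of every plant are given for PPD3, and for the members that in their class have the smallest p-values or extreme fold changes, extreme levels per length, a near-copy, or plants of 1 genotype over 1.5-fold apart; other members have folds. For each further list, members with the smallest p are named; PRPL10, AT2G24060, RABE1b, RCA and SAG12 were picked with their values in view. Of 31 cytosolic loci, 2 whose reference product names no ribosomal protein were dropped. A further upstream sequence is not reported here. Members and lists were chosen with earlier results of these data known.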

Additional observations from a re-analysis of the deposited data

How the results depend on the processing

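The count of members higher in both overexpressor plants was 37 with DESeq2 size factors, library size alone, upper-quartile scaling, no filter and a minimum of 5 CPM in 2 libraries; leaving out a plant cannot lower this count. The members' median log2 fold change ran from 0.66 to 0.73 over the scalings, filters, DESeq2 and the left-out PRPL12 and PRPL19 copies, and from 0.48 to 0.91 with a plant left out (without wild-type plant 2 and plant 1). The number of members called was 0 in edgeR under those scalings and filters, 17 at an adjusted p of 0.10 and 31 with DESeq2. In the main fit edgeR called 1 of the 19919 genes at 0.05, so a count of 0 says nothing particular to the members. Where a plant was left out, the lone plant was assumed to vary like the other genotype. Leaving out organelle genes changed nothing, since none has a count. No named member turned direction under the scalings, filters, DESeq2 or the replicate block. Without wild-type plant 2 the log2 fold changes of 6 named members moved by over 1.5 times, to 0.46 for PRPL12-A, 0.32 for PRPL12-C, 0.48 for PRPL19.1, 0.32 for PRPL29, 0.37 for PRPS1 and 0.28 for PSRP5. Without wild-type plant 1 that of PSRP5 became 0.93.

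The numbers 1 and 2 are not said to pair plants across genotypes, and deviations of same-numbered plants correlated at -0.36 over genes. With the replicate number as a block, edgeR called 0 members (0 genes in all, against 1 without it), and the members' median log2 fold change was 0.72. With the numbers crossed, an alternative chosen after seeing the data, it called 137 genes and 0 members. The tested members had 823 raw counts or more in each.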
